A study of Mus musculus with 16 samples.

Results

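Guanylin signalling in the colon was followed through 5 genes that were listed by name for their place in the pathway. The list was drawn up with earlier results of these data known. They are Guca2a (guanylin) and Guca2b (uroguanylin), which encode the peptide ligands, Gucy2c (guanylate cyclase C), the receptor, Prkg2 (cGMP-dependent protein kinase II) and Cftr, the chloride channel. All 5 were found among the 45513 genes counted.

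Guanylin and uroguanylin are small peptides that gut epithelial cells release towards the lumen, where they bind guanylate cyclase C on the apical membrane and raise cGMP inside the cell. Through Prkg2 and related kinases cGMP opens Cftr, so that chloride, bicarbonate and water leave the cell, and it restrains sodium uptake through the exchanger encoded by Slc9a3. The heat-stable enterotoxins of diarrhoea-causing bacteria act on the same receptor, and in the colon guanylin is known as the more abundant of both hormones.

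The data were 16 RNA-sequencing libraries from the colons of 8 Atoh1(WT)CreERT2; R26RtdTom mice, in which every animal carried both the tamoxifen-inducible Cre placed downstream of the Atoh1 coding sequence and the tdTom reporter. Per the labels all mice received 1 mg tamoxifen per day for 3 days. The study's methods give this same schedule for the mice that defined its secretory signature, although their passage on sequencing gives another dose. Live EpCAM+ cells of each mouse were sorted into a tdTom+ population, labelled through Atoh1, and a tdTom− population, giving 8 libraries of each. The tdTom− population is a mixture of the remaining epithelial cells, and since the first fraction released from the tissue was discarded, cells near the surface may be under-represented. Age, sex and strain were not given in the labels.

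Total counts were 16482530 to 24218367 in tdTom+ and 18318172 to 45791503 in tdTom− libraries, the largest being that of mouse 4. A floor of 3 counts corresponded to at most 0.182 counts per 1e6 total counts in any library and covers counting error only. Levels are given as counts per 1e6 (CPM) scaled by TMM library sizes. All 9 goblet markers were higher in tdTom+ cells, with summed levels of 51432 to 108880 CPM against 2282 to 8900 CPM, and all 8 absorptive colonocyte markers were lower, with sums of 428 to 810 CPM against 7522 to 15495 CPM. All 8 enteroendocrine markers were lower as well (319 to 808 CPM against 1418 to 4137 CPM). All 4 deep crypt secretory markers were higher, but Agr2 and Spink4 of these are also among the 9 goblet markers. Of other markers, 4 of 6 tested tuft markers, 4 of 6 stem and cycling markers and 2 of 5 colon markers (Car1 and Aqp8) were lower. Of the genes of small intestine, immune cells and stroma, which few tests could reach, 3 of 3, 1 of 2 and 2 of 3 were lower, and their sums were at most 79.0, 26.8 and 8.99 CPM in any library. The tdTom+ libraries therefore matched their label as secretory, largely goblet, cells. In such bulk libraries, fewer cells of a type and less RNA per cell cannot be told apart. The mouse numbers fall into 3 runs (mice 1 to 3, mouse 4 and mice 5 to 8), which may or may not be batches. Levels of the 5 genes are given by run where mice 1 to 3 and mice 5 to 8 did not overlap.

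The ligand genes lie next to each other on chromosome 4 of GRCm38 and are transcribed towards each other. Guca2a (ENSMUSG00000023247) spans chr4:119637704-119639471 on the plus strand and Guca2b (ENSMUSG00000032978) spans chr4:119656607-119658954 on the minus strand, 17135 bases apart. Both peptides are cut from the end of a longer precursor, and the last 15 codons before the stop, in exon 3 of 3 of each GENCODE M21 transcript, are shown because they encode this active end. They cover chr4:119639228-119639272 in Guca2a-201 and chr4:119656795-119656839 in Guca2b-201, and capitals mark the bases that are identical at the same place in both.
Guca2a: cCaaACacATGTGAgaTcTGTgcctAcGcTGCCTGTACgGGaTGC
Guca2b: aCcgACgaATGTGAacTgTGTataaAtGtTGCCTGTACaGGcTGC
Of these 45 bases, 29 (64.4%) were identical, yet the longest run of bases shared by any Guca2a and Guca2b transcript was 11. The reads were 50 bases long, so a read that matches exactly comes from one gene or the other.

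The stretches just before both annotated starts are shown because these neighbours differed in how their levels were divided between the populations. They come from the RefSeq promoter table for GRCm38.p6, which had entries for 3 of the 5 genes (Guca2a, Guca2b and Cftr), and they stop at the GENCODE start of each gene, chr4:119637482-119637703 (plus strand) for Guca2a and chr4:119658955-119659195 (minus strand) for Guca2b. The 250 bases before the RefSeq start were searched on both strands for letters typical of sites for 4 kinds of factor. They were GATAAG for the zinc-finger factors Gata4 and Gata6, TGTTTAC for the Foxa factors, CAGCTG for an E-box, the kind of site bound by Atoh1 and its relatives, and TTTATG for the Cdx factors. Capitals mark complete matches inside the stretch shown.
Guca2a: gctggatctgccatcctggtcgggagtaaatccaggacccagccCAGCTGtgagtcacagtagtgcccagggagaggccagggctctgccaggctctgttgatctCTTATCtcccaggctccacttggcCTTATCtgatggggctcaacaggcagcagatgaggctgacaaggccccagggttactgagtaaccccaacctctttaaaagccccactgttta
Guca2b: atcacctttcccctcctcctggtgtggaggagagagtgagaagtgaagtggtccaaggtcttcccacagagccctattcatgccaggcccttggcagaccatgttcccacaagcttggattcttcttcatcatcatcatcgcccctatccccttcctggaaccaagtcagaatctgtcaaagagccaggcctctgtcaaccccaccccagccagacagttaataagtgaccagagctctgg
Guca2a held GATAAG in reverse 145 and 121 bases before the RefSeq start and CAGCTG 206 bases before it, and a TGTTTAC match at 34 bases before it ran past the end of the stretch shown. Guca2b held none of these in its window. Over all 32851 promoters of the table, windows of the same length held GATAAG in 6.55%, TGTTTAC in 3.17%, CAGCTG in 13.0% and TTTATG in 10.8%. Such matches are letters in a window and not evidence of binding.

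Of the other genes, Gucy2c (ENSMUSG00000042638) lies at chr6:136697285-136781765 on the minus strand, Cftr (ENSMUSG00000041301) at chr6:18170687-18322768 on the plus strand and Prkg2 (ENSMUSG00000029334) at chr5:98929773-99037351 on the minus strand. No annotated gene overlapped an exon of any of the 5 on the same strand, and the counting was strand-specific.

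Uroguanylin was 3.05-fold more abundant in tdTom+ cells, while the kinase fell to 10.4% and the channel to 47.5% of their tdTom− levels. Guanylin, the more abundant ligand, and the receptor overlapped between the populations. At a Benjamini-Hochberg adjusted p under 0.01 in edgeR's quasi-likelihood test over 15841 genes, 1 of the 5 genes was higher in tdTom+ cells (Guca2b), 2 were lower (Prkg2 and Cftr) and 2 were not called (Guca2a and Gucy2c). Calls were common in these data, since 51.0% of all genes tested were called, 25.5% as higher and 25.5% as lower, and 3 of 5 is close to that background. The share of all genes with no overlap between the populations, or with every mouse in one direction, is not given here. Such separation is therefore not read as particular to these 5 genes. With the mouse as a replicate block Guca2a was called as lower too (edgeR's quasi-likelihood test, adjusted p = 0.00882). That fit called 4494 genes as higher and 4574 as lower, of 15841 tested.

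**Figure D1:**
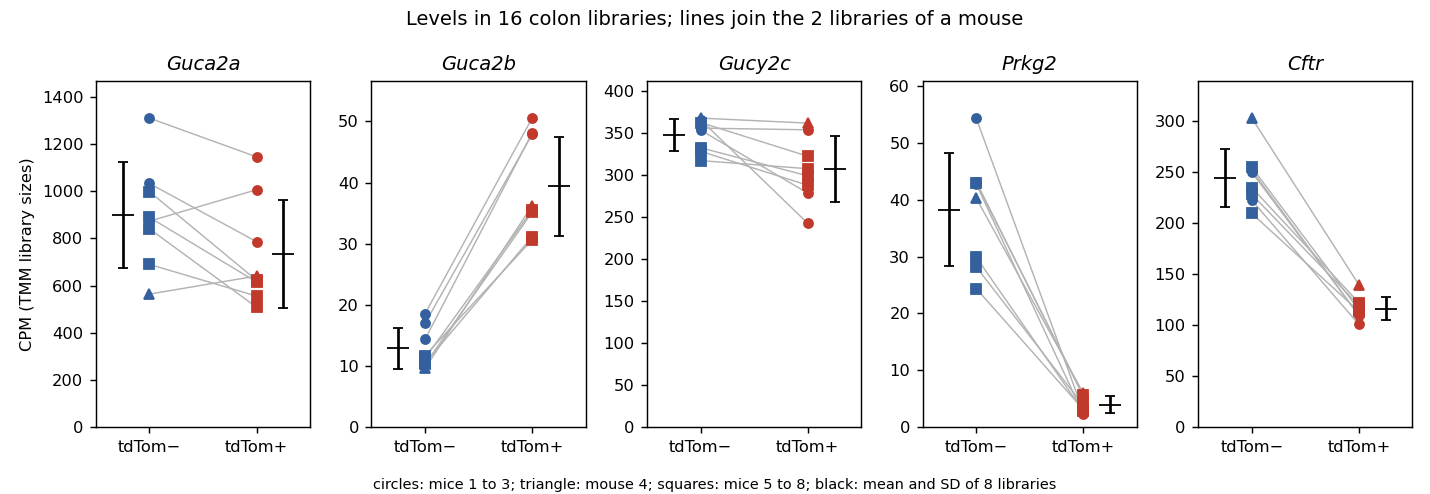
Level of each gene in CPM (vertical axes, each from 0) in the tdTom− (blue) and tdTom+ (red) library of 8 mice, with grey lines joining the libraries of a mouse and black bars for the mean and SD. Guca2b rises and Prkg2 and Cftr fall along all 8 lines with no overlap, Gucy2c falls slightly along all 8 with overlap, and Guca2a falls along 6 of 8. The share of all genes that separate in this way is not given.

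Guca2a, which encodes guanylin, was among the most abundant transcripts of both populations. Its level was 508 CPM at the lowest, 632 at the median and 1146 at the highest in tdTom+ libraries, and 564, 881 and 1310 CPM in tdTom− libraries. The groups overlapped across most of their range, and the means were 735 ± 228 CPM and 900 ± 226 CPM (SD, n = 8 each). In reads per kilobase per 1e6 reads (RPKM) its mean level of 1238 put it at place 37 of 15841 genes in tdTom+ cells, and its mean of 1515 put it at place 24 in tdTom− cells.

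The fitted log2 fold change of Guca2a was −0.29 ± 0.17 (SE), which did not pass the threshold (edgeR's quasi-likelihood test, adjusted p = 0.152). With the mouse as a replicate block it was −0.31 ± 0.095 and passed (edgeR's quasi-likelihood test, adjusted p = 0.00882). Guca2a was lower in the tdTom+ library of 6 mice, to between 60.5% and 87.5% of the tdTom− level, and higher in mice 1 and 4, at 115% and 114%. All of mice 5 to 8 were lower, and a fit on these alone gave −0.57 ± 0.11 (edgeR's quasi-likelihood test, adjusted p = 4.99e-04), whereas mice 1 to 3 alone gave −0.13 (adjusted p = 0.607). Whether these runs of mice differ was not tested.

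Guca2b, which encodes uroguanylin, was less abundant and was the gene of the 5 that was higher in tdTom+ cells. Its level was 30.6 CPM at the lowest, 35.9 at the median and 50.5 at the highest in tdTom+ libraries, against 9.62, 11.5 and 18.6 CPM in tdTom− libraries. The lowest tdTom+ library stood above the highest tdTom− library, so the groups did not overlap. The means of 39.4 ± 8.11 and 12.9 ± 3.35 CPM (SD, n = 8 each) were 3.05-fold apart, and the fitted log2 fold change was 1.62 ± 0.15 (SE, edgeR's quasi-likelihood test, adjusted p = 5.49e-09). Within mice the tdTom+ level was 262% to 376% of the tdTom− level, higher in 8 of 8.

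For comparison, goblet markers in tdTom− cells stood at 3.05% (Spink4) to 8.47% (Zg16) of their tdTom+ level, while Guca2b stood at 32.8%. Its distribution was thus less one-sided than that of any of the 9 goblet markers. Guca2b also varied by run of mice in both populations, at 47.9 to 50.5 CPM in mice 1 to 3 and 30.6 to 35.5 CPM in mice 5 to 8 for tdTom+ cells, and at 14.4 to 18.6 CPM against 10.3 to 11.7 CPM for tdTom− cells. Within each run it was higher in every tdTom+ library than in any tdTom− library.

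Guca2a in tdTom+ cells showed the same order of runs, with 786 to 1146 CPM in mice 1 to 3 and 508 to 623 CPM in mice 5 to 8. The tdTom− library of mouse 2 had the highest and that of mouse 4 the lowest level of both ligands and of the summed absorptive markers (15495 and 7522 CPM), and in tdTom+ cells the summed enteroendocrine markers were highest in mice 1 to 3 (669 to 808 CPM, against 319 to 629 in the others). Summed tuft markers had the same extremes in tdTom− libraries (157 CPM in mouse 2 and 91.1 CPM in mouse 4). Summed stem and cycling markers had the reverse (514 and 929 CPM). In tdTom+ libraries these stem and cycling sums also separated by run, at 390 to 472 CPM in mice 1 to 3 and 570 to 639 CPM in mice 5 to 8. The part of any of these cells in the ligand levels was not tested.

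Within a library the ratio of both ligands does not depend on scaling between libraries. Per kilobase there were 21.0 to 33.2 Guca2a reads for each Guca2b read in tdTom+ libraries (median 26.0) and 85.9 to 127 in tdTom− libraries (median 100.06). Guanylin exceeded uroguanylin in every library, but the balance was shifted towards uroguanylin in tdTom+ cells, with no overlap. The mean log2 ratio of Guca2b to Guca2a was 1.93 ± 0.11 (SE of the difference) higher in tdTom+ libraries, or 3.81-fold (exact permutation test that reassigns all 16 libraries, two-sided p = 0.0001554, the smallest it can give). Paired by mouse, the shift was seen in 8 of 8 mice, from 1.54 to 2.38 (exact sign-flip permutation test, two-sided p = 0.00781, the smallest that 8 pairs can give), and it was present within mice 1 to 3 and within mice 5 to 8 (1.69 to 2.16).

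**Figure D2:**
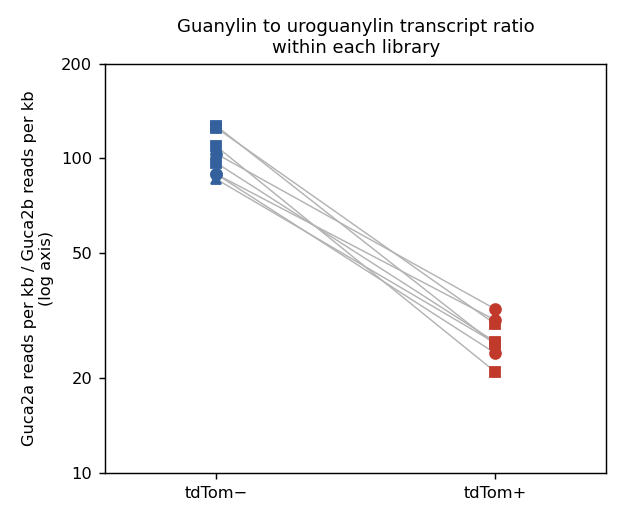
Ratio of Guca2a to Guca2b reads per kilobase (log axis) in each tdTom− (blue) and tdTom+ (red) library, with lines joining the libraries of a mouse (circles for mice 1 to 3, triangle for mouse 4, squares for mice 5 to 8). The tdTom− libraries lie at 85.9 to 127 and the tdTom+ libraries at 21.0 to 33.2, and all 8 lines fall.

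Taking both ligands together, the summed level was 1283 ± 393 RPKM in tdTom+ and 1530 ± 383 RPKM in tdTom− cells (SD, n = 8 each), and the ranges overlapped. Uroguanylin made up 3.63% ± 0.516 of that sum in tdTom+ and 0.980% ± 0.144 in tdTom− cells. The total ligand transcript was thus carried almost wholly by guanylin in either population.

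Gucy2c, the receptor for both peptides, was present at similar levels on both sides of the sort. Its level was 243 CPM at the lowest, 303 at the median and 362 at the highest in tdTom+ libraries, and 317, 355 and 368 CPM in tdTom− libraries. The groups overlapped, and the tdTom+ libraries were the more spread, with means of 307 ± 39.3 and 348 ± 19.2 CPM (SD, n = 8 each).

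The fitted log2 fold change of Gucy2c was −0.18 ± 0.074 (SE), which was not called at 0.01 (edgeR's quasi-likelihood test, adjusted p = 0.0383) and would be at 0.05. It was lower in the tdTom+ library of 8 of 8 mice, but by very different amounts. The tdTom+ level was 66.3% and 78.8% of the tdTom− level in mice 3 and 2, and 87.7% to 99.4% in the other 6. Other guanylate cyclases were near absent, since none of the 9 genes on the list, which held soluble and sensory forms and the natriuretic peptide receptors (among them Npr3, a clearance receptor that is no cyclase), had enough counts to be tested. The most counted of them was Npr1, with 158 counts over all 16 libraries against 113634 for Gucy2c.

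Prkg2, the membrane-bound cGMP-dependent kinase that phosphorylates Cftr, showed the largest difference of the 5. Its level was 2.26 CPM at the lowest, 3.48 at the median and 5.96 at the highest in tdTom+ libraries, from 35 to 141 counts each, and 24.4, 41.5 and 54.4 CPM in tdTom− libraries. The groups did not overlap, and even the highest tdTom+ library was far below the lowest tdTom− library. The means of 3.97 ± 1.47 and 38.3 ± 9.96 CPM (SD, n = 8 each) gave a fitted log2 fold change of −3.25 ± 0.20 (SE, edgeR's quasi-likelihood test, adjusted p = 1.48e-11).

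The mean tdTom+ level of Prkg2 was 10.4% of its tdTom− level. The 8 absorptive markers ranged from 2.77% (Aqp8, a water channel) to 10.2% (Krt20, a keratin of mature surface cells), so Prkg2 lay just outside the upper end of that range. It also lay inside the range of the 8 enteroendocrine markers, 8.47% (Tph1) to 56.0% (Gcg). Its share was 5.09% and 5.29% in mice 2 and 3, whose tdTom+ libraries were also lowest in Gucy2c, and 9.39% to 14.8% in the other 6 mice. Summed absorptive markers in the tdTom+ libraries of mice 2 and 3 (684 and 618 CPM) lay inside the range of the others, 428 to 810 CPM. Summed stem and cycling markers were lowest in these same libraries (390 and 465 CPM). They were highest in that of mouse 4 (650 CPM), which was also highest in Gucy2c and Prkg2. The tdTom+ library of mouse 1 did not follow, with a sum of 472 CPM but 354 CPM of Gucy2c and 5.41 CPM of Prkg2. Among tdTom− libraries, that of mouse 2 had the lowest sum (514 CPM) and the highest Prkg2 level (54.4 CPM). The part of these markers in either level was not tested. The related kinase gene Prkg1 had 30 counts over all libraries, so that Prkg2 was the main cGMP-dependent kinase transcript counted in either population.

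Cftr, the chloride and bicarbonate channel at the end of the pathway, was present in both populations and lower in tdTom+ cells. Its level was 101 CPM at the lowest, 114 at the median and 140 at the highest in tdTom+ libraries, against 210, 242 and 303 CPM in tdTom− libraries. The groups did not overlap, and the libraries of mouse 4 were the highest in both. In tdTom+ libraries Cftr was 101 to 110 CPM in mice 1 to 3 and 114 to 122 CPM in mice 5 to 8. This was the reverse of the order of both ligands, while these runs overlapped in tdTom− libraries. The means of 116 ± 11.5 and 244 ± 28.5 CPM (SD, n = 8 each) gave a fitted log2 fold change of −1.07 ± 0.076 (SE, edgeR's quasi-likelihood test, adjusted p = 1.05e-10).

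Within mice Cftr in tdTom+ cells was 43.5% to 54.2% of the tdTom− level, the narrowest range of the 5 genes on the log2 scale. Its mean share of 47.5% was close to that of the epithelial keratins Krt8 (47.4%) and Krt19 (48.9%) and far above the 2.77% to 10.2% of the absorptive markers. It also lay inside the enteroendocrine range of 8.47% to 56.0%, between Neurod1 (45.7%) and Cck (50.7%). All 6 general epithelial markers were lower in tdTom+ cells, with shares from 47.4% to 86.9% (Epcam). Gucy2c (88.2%) and Guca2a (81.7%) stood near the upper end of that range.

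**Figure D3:**
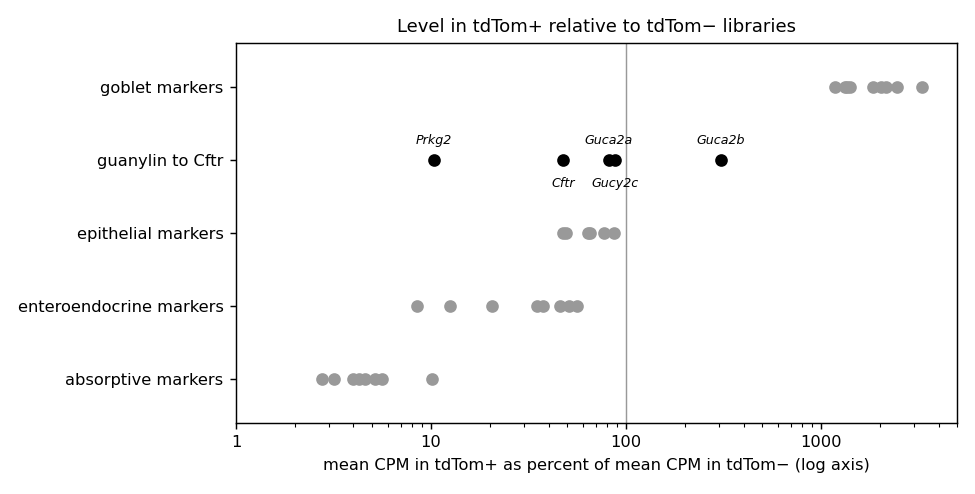
Mean CPM in tdTom+ libraries as a percent of mean CPM in tdTom− libraries (log axis, 8 libraries each, line at 100) for the 5 pathway genes (black) and for each marker (grey). Prkg2 (10.4%) lies at the edge of the absorptive markers, Cftr (47.5%), Guca2a (81.7%) and Gucy2c (88.2%) lie among or beside the epithelial markers, and Guca2b (305%) lies between them and the goblet markers. The enteroendocrine markers run from 8.47% (Tph1) to 56.0% (Gcg), a range that also holds Prkg2 and Cftr.

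Compared per length, the order of the transcripts also differed between the populations. In tdTom+ cells the mean level was 1238 RPKM for Guca2a, 77.5 for Gucy2c, 45.3 for Guca2b, 14.96 for Cftr and 0.739 for Prkg2. In tdTom− cells it was 1515 RPKM for Guca2a, 87.9 for Gucy2c, 31.5 for Cftr, 14.8 for Guca2b and 7.13 for Prkg2. Uroguanylin and Cftr thus changed places, and in neither population did the ranges of neighbours in the order overlap over the 8 libraries. In tdTom+ cells Prkg2 stood at place 13661 of 15841 genes, and in tdTom− cells at place 7138.

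**Figure D4:**
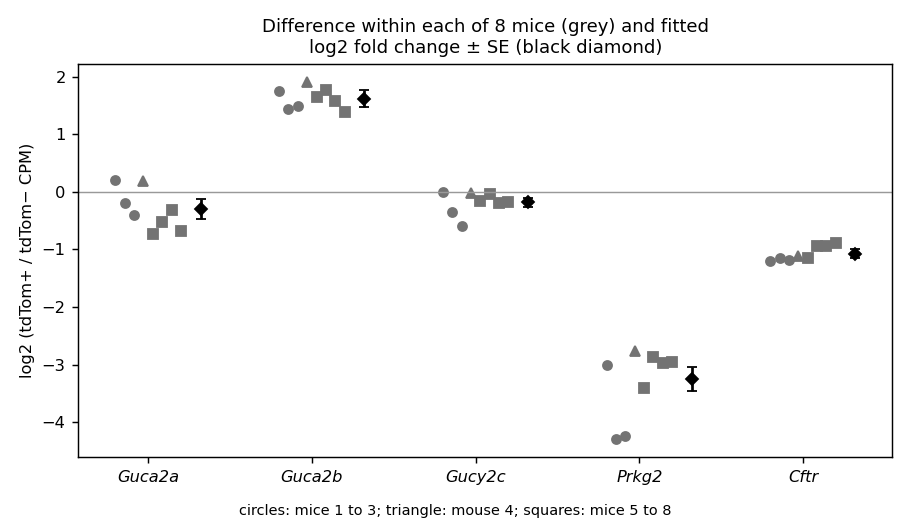
Log2 ratio of tdTom+ to tdTom− CPM in each of 8 mice (grey, circles for mice 1 to 3, triangle for mouse 4, squares for mice 5 to 8) and the edgeR log2 fold change with its SE (black) for the 5 genes. Guca2b lies above 0 and Prkg2 and Cftr lie well below it in every mouse, Gucy2c lies just below, and Guca2a lies on both sides.

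Levels also varied together among mice. After the mean of each population was subtracted, the Pearson correlation of log2 CPM over the 16 libraries, which come in pairs from 8 mice and share those mice's preparation, was 0.84 between Guca2a and Guca2b and 0.88 between Gucy2c and Prkg2, while Guca2a and Cftr gave −0.67. In tdTom+ cells Guca2a and Guca2b also separated by run of mice, in the same order, and Cftr separated in the opposite order. Guca2b separated by run in tdTom− cells as well. The part of these runs in the correlations was not tested. Among 11651 genes with a mean of at least 5 CPM, those most like Guca2a were Atg4d (0.95), Rchy1 (0.92) and Fam3b (0.92), and those most like Guca2b were Hsd17b11 (0.94), Fam213b (0.93) and Spint2 (0.92). Mfap3l headed the list for both Gucy2c and Prkg2 (0.90 each), followed by Ube2z (0.88) and Plxnd1 (0.88) for Gucy2c and by Prlr (0.88) and Hsd17b4 (0.88) for Prkg2. The likeness of Ube2z and Plxnd1 to Gucy2c lay mostly in the 8 tdTom+ libraries, where both gave 0.97, against 0.44 and 0.34 in the 8 tdTom− libraries. Those most like Cftr were Uaca (0.94), Zfp704 (0.92) and Rtf1 (0.91).

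The genes around the pathway were taken by role, with the median log2 fold change of all 15841 genes (0.0039) and of their absolute values (0.33) as the background. Over all roles 52 of the 73 genes tested were called (71.2%), against 51.0% of all genes, and since the lists were drawn up with results known, nothing is read from that share. Of the enzymes and pumps that remove cyclic nucleotides, 14 of the 17 listed were tested, of which 4 were higher in tdTom+ cells, 7 were lower and 3 were not called, with a median of −0.43. The cGMP-specific phosphodiesterases fell, with Pde9a at −1.27 ± 0.064 (121 CPM in tdTom− cells and 50.2 in tdTom+ cells) and Pde5a at −0.70 ± 0.071 (94.6 and 58.3 CPM). Pde3a, which breaks down cAMP and is inhibited by cGMP, fell by more (−1.53 ± 0.098), as did the low-level Pde11a (−2.31 ± 0.25).

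Of the pumps that carry cyclic nucleotides out of the cell, Abcc5 fell (−1.57 ± 0.15) and Abcc4, which also binds near Cftr at the apical membrane, rose slightly (0.41 ± 0.082). The cAMP-specific Pde4d rose as well (0.64 ± 0.075), and so did the calmodulin-dependent Pde1c (1.22). Pde4a passed narrowly (0.44, edgeR's quasi-likelihood test, adjusted p = 0.00624) and was not called when any of mice 2, 3, 4, 6 or 8 was left out (0.39 to 0.45, adjusted p from 0.0119 to 0.0229) or in either run of mice alone. Abcc4 was not called in mice 5 to 8 only (0.37, adjusted p = 0.0114).

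Of the other cyclic nucleotide kinases and effectors, 8 of 14 were tested, with 2 higher, 2 lower and 4 not called, so that 4 of 8 were called where 51.0% of all genes were. The main catalytic and regulatory subunits of protein kinase A, which also phosphorylates Cftr, were not called, with log2 fold changes of −0.06 (Prkaca), 0.02 (Prkacb), 0.04 (Prkar1a) and 0.19 (Prkar2a). Prkar2a was higher in 8 of 8 mice and was called with the mouse as a replicate block (0.19, edgeR's quasi-likelihood test, adjusted p = 0.00115). The cAMP-activated exchange factor Rapgef3 (Epac1) rose from 3.71 to 83.8 CPM (4.53 ± 0.18), while its relative Rapgef4 fell (−1.74 ± 0.15). The regulatory subunit Prkar2b rose (1.52 ± 0.090) and Prkar1b fell (−2.19 ± 0.21). Of the cyclic nucleotide-gated channel genes listed, the visual Cnga1 and the olfactory Cnga2 had no counts in any library. Cnga3, Cnga4 and Cngb1 had 88, 68 and 27 counts over all libraries, too few to be tested in the main fit.

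The apical scaffolds that hold receptor, kinase and channel together were divided. Of 10 listed, 9 were tested, with 2 higher, 5 lower and 2 not called. Slc9a3r2 (NHERF2), which tethers Prkg2 and Slc9a3, rose from 2.61 to 38.9 CPM (3.91 ± 0.12), although both of those partners were lower. Its relative Slc9a3r1 (NHERF1), which binds the end of Cftr, fell from 258 to 77.2 CPM (−1.74 ± 0.084), and Pdzd3, a scaffold that binds guanylate cyclase C, fell from 25.2 to 4.76 CPM (−2.41 ± 0.11). Gopc, which directs Cftr towards lysosomes, rose (1.45 ± 0.065), and Ezr and Vil1, which link scaffolds to actin and bundle it, fell by 0.64 and 0.61.

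In the cAMP arm that opens Cftr independently of guanylin, 9 of 12 genes were tested, with 1 higher, 4 lower and 4 not called. Adcy6, the most abundant adenylyl cyclase of the list, was not called (−0.13, 315 CPM in tdTom+ and 344 in tdTom− cells), and Adcy9 rose (1.20 ± 0.093). The receptor for vasoactive intestinal peptide, Vipr1, fell (−0.48 ± 0.067). The inhibitory receptors Sstr1 (−2.97 ± 0.17) and Adra2a (−2.11 ± 0.21) and the low-level adenosine receptor Adora2b (−1.94 ± 0.31) fell by more. The other inhibitory receptor listed, Sstr2, was not called (0.52 ± 0.21, higher in 7 of 8 mice, edgeR's quasi-likelihood test, adjusted p = 0.0333) and was called as higher with the mouse as a replicate block (0.54, adjusted p = 8.61e-04).

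Of the 20 ion transporters and channels listed as partners of Cftr, 19 were tested, with 6 higher, 9 lower and 4 not called. The exchangers for salt absorption fell the most, with Slc9a3, the sodium-proton exchanger restrained by cGMP, going from 127 to 4.07 CPM (−4.94 ± 0.25), Slc26a3, the chloride-bicarbonate exchanger that also counts among the absorptive markers, at −4.45 ± 0.23, and Slc9a2 at −3.82 ± 0.12. These 3 stood further from 0 than Cftr (−1.07), although the differences between genes were not tested. Slc12a2 (NKCC1), which loads cells with chloride from the blood side, rose from 565 to 950 CPM (0.75 ± 0.10), and the bicarbonate importer Slc4a7 rose from 73.6 to 285 CPM (1.95 ± 0.093).

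Best2, an anion channel known from colonic goblet cells, rose from 8.08 to 176 CPM (4.47 ± 0.25). Of the other anion channels, the calcium-activated Ano1 was not called (0.25 ± 0.17) and Clcn2 fell (−2.72 ± 0.099). The basolateral potassium channel subunit Kcnq1, which sustains chloride exit, fell (−1.21 ± 0.13), while its partner Kcne3 (−0.15) and the calcium-activated Kcnn4 (−0.25) were not called. Kcnn4 was lower in 8 of 8 mice and was called with the mouse as a replicate block (−0.24, edgeR's quasi-likelihood test, adjusted p = 2.41e-04). All 3 subunits of the epithelial sodium channel rose, by 0.51 (Scnn1a), 3.17 (Scnn1b) and 1.99 (Scnn1g) on the log2 scale.

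**Figure D5:**
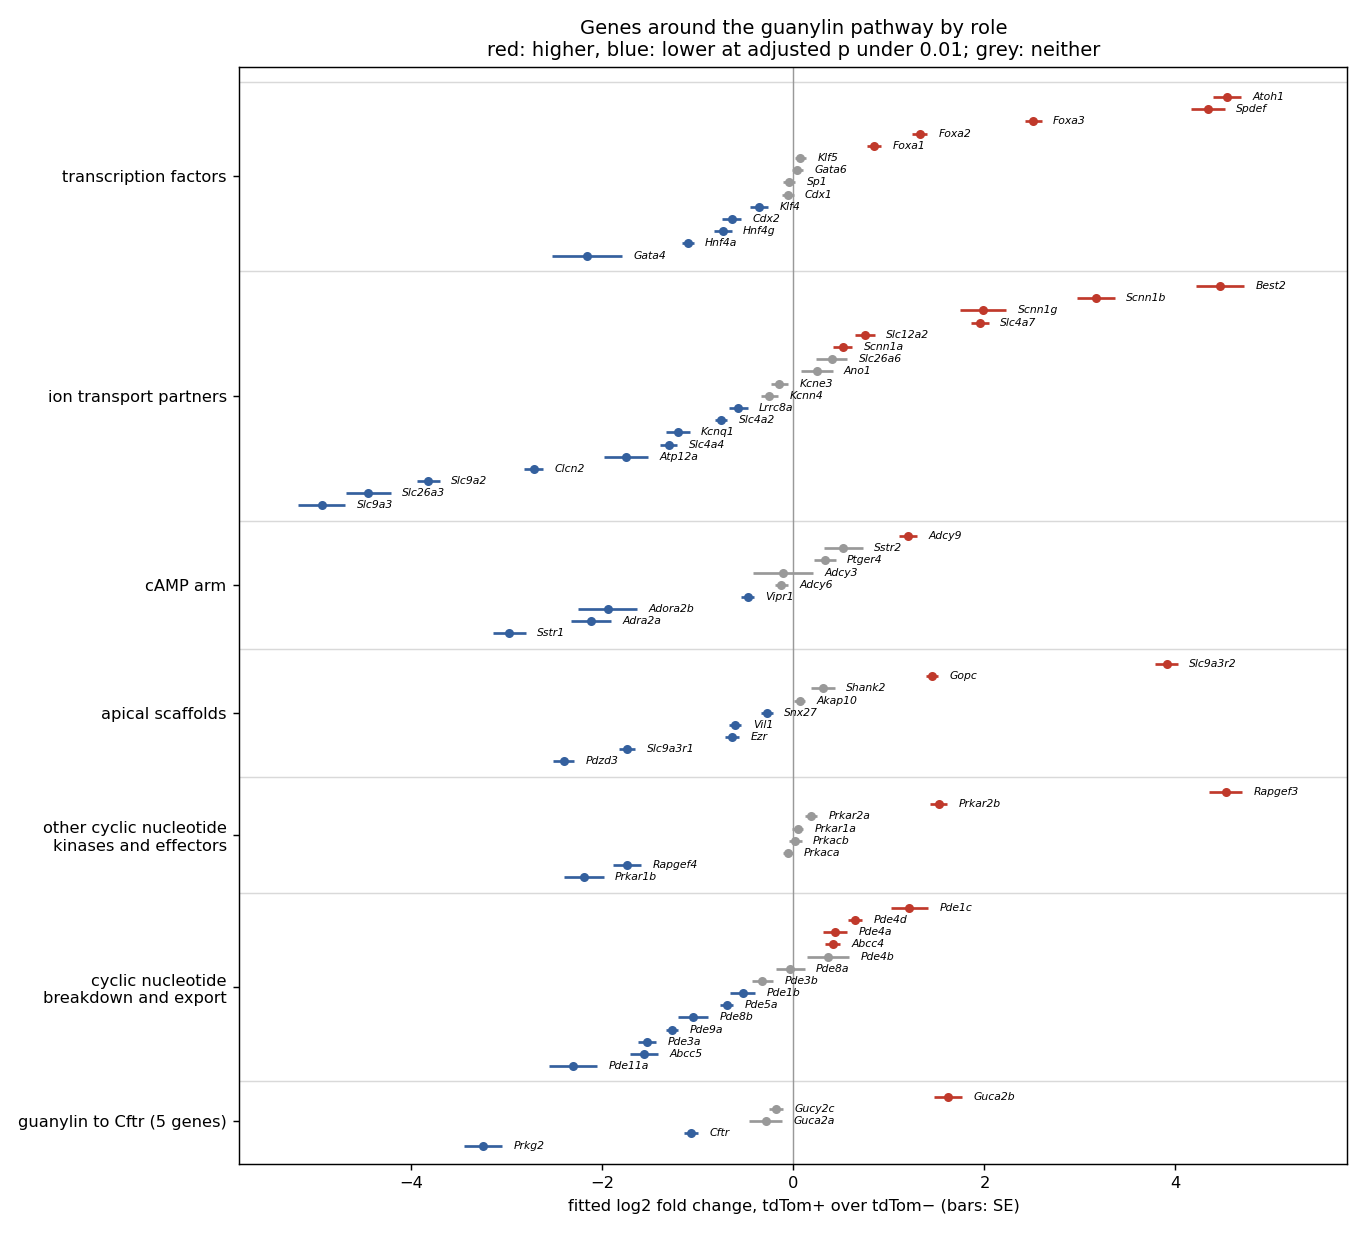
Fitted log2 fold change (tdTom+ over tdTom−, horizontal axis, bars for the SE, 8 libraries each) of the 5 genes and of the tested genes around them, grouped by role and ordered by value within a role, with red for higher, blue for lower and grey for not called. Each role holds genes on both sides, from Slc9a3 at −4.94 to Atoh1 at 4.54.

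Among 14 transcription factors with a known link to genes of this kind, all tested, 5 were higher, 5 were lower and 4 were not called. Foxa1 (0.84 ± 0.071), Foxa2 (1.32 ± 0.076) and Foxa3 (2.51 ± 0.086) all rose, as did Atoh1 itself (4.54 ± 0.15) and its target Spdef (4.34 ± 0.18). Hnf4a (−1.11 ± 0.063), a nuclear receptor of gut and liver epithelium, and Cdx2 (−0.65 ± 0.10), a factor of intestinal identity, fell. Gata6 was not called (0.04 ± 0.055), and Gata4, a factor of the small intestine, fell from a level of only 1.18 CPM.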

How the data were processed

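RNA was sequenced from EpCAM+ tdTom+ and EpCAM+ tdTom− colon cells of 8 mice (16 libraries). Libraries were stranded and read from one end for 50 bases. The authors used TopHat2 (2.1.1) for alignment to the mouse build GRCm38 and deposited raw read counts per gene from featureCounts (1.5.0-p1 in the file headers), for primary alignments over exons on the reverse strand. Groups and mouse numbers came from the sample labels. GENCODE M21 gave symbols for 44585 of 45513 genes.

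The test was the quasi-likelihood F test of edgeR 4.0.16 (R 4.3.3) without a mouse term, after filterByExpr and TMM, over all 15841 genes that passed, with a Benjamini-Hochberg adjusted p under 0.01. Levels are CPM, or RPKM over the exon length in the files. The SE of a log2 fold change was derived from it and the F statistic. Each mouse gave both libraries, and deviations from the group means correlated at 0.22 to 0.41 within a mouse and at most 0.17 between mice, so mouse numbers were taken to pair the libraries. No libraries differed as little as sampling noise. Alternatives tried were a fit blocked by mouse, DESeq2 1.42.0, limma-voom (limma 3.58.1), RLE and upper-quartile normalization, library sizes without mitochondrial and the 20 most abundant genes, no filter, an adjusted p of 0.05, each mouse left out, and mice 1 to 3 or 5 to 8 only.

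On simulated counts with 200 changed genes among 15730, the fit recovered 28 of 100 at a log2 change of 0.5 and 89 of 100 at 1, with 1 false call, and the blocked fit recovered 57 and 88 with 3. The genes named are the 5, those of the role and marker lists, and for each of the 5 the 3 most like it. The 5 genes and all lists were chosen with earlier results of these data known. Phosphodiesterase Pde2a was not found by symbol. Protein sequences were not used here, and some planned list genes and 1 motif are not reported here.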

Additional observations from a re-analysis of the deposited data

How the results depend on the processing

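Other settings gave 155 values, of which 150 left both the direction and the call as they were (for counts of genes, within 1.5 times, and for the ligand ratio, the direction only). In mice 1 to 3 alone the ligand ratio had no p, and in mice 5 to 8 alone p was 0.0286 (exact permutation test, two-sided). The log2 fold changes of Guca2b (1.56 to 1.66), Prkg2 (−3.73 to −3.003) and Cftr (−1.18 to −0.98) were called under all 18 alternatives, and the ligand ratio stayed between 1.69 and 2.16 under all 11. Guca2a became a call with the mouse as a replicate block (−0.31, adjusted p = 0.00882, edgeR's quasi-likelihood test) and in mice 5 to 8 only (−0.57), and its adjusted p ran from 4.99e-04 to 0.607 over all alternatives. Gucy2c was called at an adjusted p under 0.05 (−0.18) and in none of the others, where its adjusted p ran from 0.0126 to 0.119. The replicate block changed no other call of the 5 genes and gave 4494 higher and 4574 lower genes in place of 4032 and 4042. In mice 1 to 3 only, with 6 libraries, 2546 genes were higher and 2559 lower.

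With each mouse left out in turn, 3670 to 4177 genes were higher and 3700 to 3914 lower, Guca2a ranged from −0.37 to −0.23, Guca2b from 1.59 to 1.66, Gucy2c from −0.20 to −0.13, Prkg2 from −3.33 to −3.09, Cftr from −1.09 to −1.04, and the ligand ratio from 1.87 to 1.99, with no change of call. The genes called around the pathway numbered 52, and 48 to 59 under the alternatives, with none reversed. Those lost under some alternative were Pde4a, Pde1b, Abcc4, Snx27 and Klf4. The replicate block lost none and added Prkar2a, Kcnn4 and Sstr2, as given above, and Pde3b (−0.32), Shank2 (0.32) and Ptger4 (0.35). Depth limits Prkg2 most, at 35 counts in its lowest library. In the simulation most changes of 0.5 on the log2 scale were missed without the block, and the differences fitted for Guca2a and Gucy2c were smaller than that. The simulation changed only 200 of 15730 genes, however, whereas 51.0% of genes were called in the data. Its adjusted p threshold was therefore stricter, so its recovery does not give the power for these genes.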
